A study of Mus musculus with 4 samples.

Results

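The helper T cell effector cytokines described here are 10 genes, Ifng, Tnf, Lta, Il3, Csf2, Il4, Il5, Il13, Il10 and Il21, taken by symbol from a table of 16142 genes, and all 10 were in it. The table comes from RNA-seq (polyA RNA) of 2 libraries of WT and 2 libraries of R111A splenic CD4+ T cells, purified with beads, FACS sorted and activated for 12 h with anti-CD3 (5 µg/mL) and anti-CD28 (1 µg/mL). R111A is a form of Regnase-1, an endoribonuclease encoded by Zc3h12a, in which the site cut by the paracaspase MALT1 is changed, and the comparison was made to profile transcripts in T cells that carry it. WT mice were B6. R111A mice were Cd4CreERT2 LSL-R111A fl/fl, in which CreERT2 under Cd4 control, activated by tamoxifen (75 mg/kg, i.p., 5 days), removes a stop cassette so that a CAG promoter in the Rosa26 locus drives the mutant together with EGFP. The mutant is thus added to the endogenous gene, which remains in place. The methods give an age of 6 to 12 weeks for the animals of the study. Tamoxifen-treated WT mice served as controls for other sorted cells of the study, while the wording of the labels leaves it unclear for these, and WT cells carry no CreERT2. The sorting methods gate GFP+ cells of reporter mice and part them into CD25+ regulatory T cells (Tregs) and CD25- conventional cells, but which fraction was sequenced is not stated. Unstimulated cells were not analysed here, so the values describe activated cells only.

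When the T cell receptor and CD28 are engaged, calcium and kinase signals bring NFAT, AP-1 and NF-kB to cytokine genes, and lineage factors such as T-bet and GATA3 set which of them are read. Recently activated cells make Il2, Tnf and Lta readily, whereas Ifng, Il4, Il13 and Il10 are made mainly by cells that have differentiated or are about to. Cytokine mRNAs are short-lived, since AU-rich stretches and stem-loops in their 3'UTRs recruit decay factors, Regnase-1 among them.

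Zc3h12a, the gene of the transgene, was at 17.0 and 15.7 FPKM in WT replicates 1 and 2 and at 196 and 131 FPKM in R111A replicates 1 and 2, where FPKM counts fragments relative to transcript length and library size. Both R111A libraries were far above both WT libraries, as their labels require (3.22 on the log2 scale with a standard error of 0.19, adjusted p = 9.2e-06 in limma), although these values do not separate transgene from endogenous transcripts. Fold changes throughout are R111A minus WT on the log2(FPKM + 1) scale, which understates the change of low genes, and the p-values come from limma fitted over the 9831 genes whose mean reached 1 FPKM, adjusted by the Benjamini-Hochberg method. The p-values may measure only the spread between these libraries, because the labels do not say whether the replicates were separate animals. An exact permutation test of 2 against 2 libraries cannot give a two-sided p below 0.333. From the steps that single fragments leave in low values, the depth was estimated as 15800000 and 15000000 fragments in WT and 15000000 and 13500000 in R111A. Summed over all genes, FPKM came to 801475 and 836143 in WT but 1053551 and 1012215 in R111A, so rescaling each library to the same sum (TPM) lowers every R111A value relative to WT.

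All 10 CD4+ T cell markers in the table were expressed, with summed levels of 2390 and 2386 FPKM in WT and 2017 and 1849 FPKM in R111A. Cd3g was the most abundant by the mean over all libraries, although Cd5 and Lck exceeded it in R111A replicate 1. Of them 5 were lower and 1 higher (32.1% and 21.2% of all genes tested), 8 and 0 after rescaling to TPM (51.8% and 13.6%), 3 and 1 with median-of-ratios factors (26.97% and 24.3%) and 3 and 2 after quantile normalization (26.7% and 23.7%), so the count depends on the scaling. Thy1 changed the most, from 96.5 and 98.1 FPKM in WT to 25.5 and 25.1 FPKM in R111A (log2 fold change -1.90, adjusted p = 1.3e-05 in limma). Cd4 itself was at 158 and 131 FPKM in WT against 70.7 and 51.4 FPKM in R111A (log2 fold change -1.24, standard error 0.18, adjusted p = 0.00057 in limma), and Cd8a did not exceed 0.20 FPKM in any library. The other CD8 gene, Cd8b1, was at 7.21 and 6.56 FPKM in WT against 3.86 and 4.39 FPKM in R111A (log2 fold change -0.62, adjusted p = 0.0066 in limma), a call lost without WT replicate 1 (-0.56, adjusted p = 0.10, with a range of 0.00039 to 0.10 over the alternatives). Of 6 Treg markers, Foxp3, Ctla4 and Lrrc32 were lower in R111A and Ikzf4 was higher (32.1% and 21.2% of all genes), a call lost with no filter, after rescaling to TPM or without either WT library (adjusted p from 0.0039 to 0.20 over the alternatives in limma). After rescaling to TPM 5 of the 6 were lower and 0 higher (51.8% and 13.6% of all genes), Il2ra and Ikzf2 being added. Their sum was 206.5 and 203.8 FPKM in WT and 150.3 and 152.9 FPKM in R111A, most of it Il2ra, which activated conventional T cells make too. Foxp3 alone was at 11.3 and 8.78 FPKM in WT against 2.86 and 1.86 FPKM in R111A.

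Markers of other cells were low in every library. Those that passed the filter did so through their R111A values, the WT means being under 1 FPKM. Their tests are therefore taken from the fit with no filter. There Lyz2 (1.61), Fcer1g (1.19), Gzma (1.41), Rora (1.06) and Cd79a (1.52) were higher in R111A on the log2 scale. Their adjusted p ran from 0.0023 to 0.023 in limma, and Cd79b was not called (0.68, adjusted p = 0.13). Of the markers under the filter, Itgam, Adgre1, Itgax, Mpo, Klre1, Klra4, Klra8, Klrb1c, Ms4a2 and Kit were called higher by the adjusted p, and none was called lower. These calls stand on values near the floor, the highest being 1.10 FPKM (Klre1, R111A replicate 2). Uncalled markers went both ways, such as Il1rl1 (-0.25), Hdc (-0.17) and Klrg1 (-0.12) against Ncr1 (0.24) and Clec7a (0.24). No share of all genes is given for that fit, so these calls are a description only. Of 12 myeloid markers, Lyz2 and Fcer1g passed, the sum being 1.74 and 2.04 FPKM in WT and 11.5 and 9.29 FPKM in R111A, with Fcer1g the most abundant and Csf3r and S100a9 at 0 throughout. Of 9 NK and innate lymphoid cell markers, Gzma and Rora passed, with sums of 1.90 and 2.10 FPKM in WT and 6.29 and 8.72 FPKM in R111A and Rora the most abundant. Of 7 B cell markers, Cd79a and Cd79b passed, with sums of 2.23 and 1.06 FPKM in WT and 5.32 and 4.60 FPKM in R111A and Cd79a the most abundant in R111A. None of 9 mast cell and basophil markers passed, with sums between 0.80 and 1.21 FPKM, Hdc the most abundant in WT and Kit in R111A, and Fcer1a, Prss34 and Cma1 at 0 in all 4 libraries. The part of other cells in the cytokine values was not tested.

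**Figure D1:**
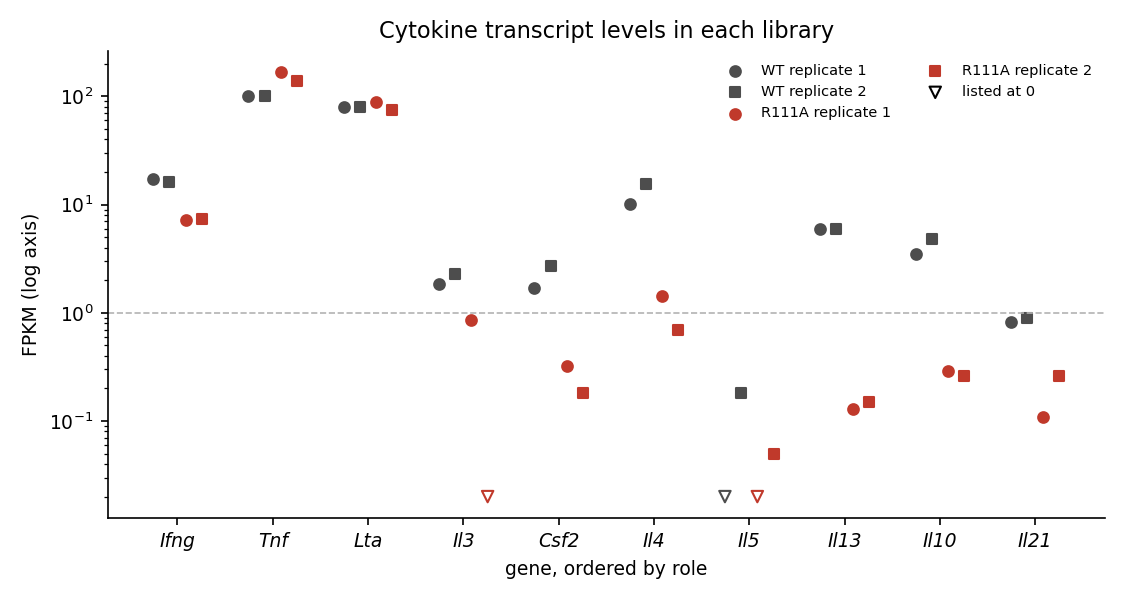
FPKM of the 10 cytokine genes in each library on a log axis, with circles and squares for replicates 1 and 2, WT in grey, R111A in red, triangles for genes listed at 0 and a dashed line at 1 FPKM. Tnf and Lta stand above 74 FPKM in all 4 libraries, whereas both R111A points lie below both WT points for Ifng, Il3, Csf2, Il4, Il13, Il10 and Il21.

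The cytokines did not move as a group. Il4, Il13, Il10, Csf2, Il3 and Ifng fell, Lta was not called and Tnf was higher in R111A, a call that was lost after rescaling to TPM and without either WT library (values below). Of the 8 members whose mean reached 1 FPKM, 6 were lower by at least 2-fold with an adjusted p under 0.05, as were 8.34% of all genes tested, and 0 were higher by that rule, against 8.52% of all genes. By the adjusted p alone 6 were lower and 1 was higher (Tnf), against 32.1% and 21.2% of all genes. Both R111A libraries lay below both WT libraries for 6 of the 8 and above them for 1, against 46.3% and 32.0% of all genes. These counts are a description only, because Il3, Csf2, Il13 and Il10 passed the filter through their WT values and so had to differ. Ifng, Tnf, Lta and Il4 passed it on the R111A mean alone, and Il5 and Il21 did not pass it.

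The promoters of Il4, Il13 and Csf2, which fell together, and of Tnf, which did not fall, are printed to show what they have in common. They are RefSeq sequences of GRCm38.p6 (the assembly of mm10), from 250 bases before to 50 bases after the start, 5' to 3' on the minus strand, on which all 4 genes lie, at chr11:53618616-53618915 (Il4), chr11:53634653-53634952 (Il13), chr11:54249850-54250149 (Csf2) and chr17:35201958-35202257 (Tnf). Capitals mark the NFAT core GGAAA or, for a match on the other strand, its complement TTTCC.
Il4: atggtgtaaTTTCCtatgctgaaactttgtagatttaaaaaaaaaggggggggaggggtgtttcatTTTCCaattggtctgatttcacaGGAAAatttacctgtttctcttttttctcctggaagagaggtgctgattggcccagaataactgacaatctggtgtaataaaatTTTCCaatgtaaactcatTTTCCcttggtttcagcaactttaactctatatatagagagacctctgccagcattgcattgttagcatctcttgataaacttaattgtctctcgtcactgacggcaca
Il13: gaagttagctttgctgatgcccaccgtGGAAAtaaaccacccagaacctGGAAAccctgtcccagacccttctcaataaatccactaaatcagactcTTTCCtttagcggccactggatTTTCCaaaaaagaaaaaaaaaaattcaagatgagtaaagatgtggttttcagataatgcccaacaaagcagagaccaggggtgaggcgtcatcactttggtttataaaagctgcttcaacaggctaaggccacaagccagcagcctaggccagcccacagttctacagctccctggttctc
Csf2: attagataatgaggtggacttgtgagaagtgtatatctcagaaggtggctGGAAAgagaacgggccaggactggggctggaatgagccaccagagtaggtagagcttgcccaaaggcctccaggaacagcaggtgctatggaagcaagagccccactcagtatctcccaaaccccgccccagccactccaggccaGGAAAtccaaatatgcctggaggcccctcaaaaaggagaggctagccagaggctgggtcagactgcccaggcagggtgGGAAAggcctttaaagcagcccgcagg
Tnf: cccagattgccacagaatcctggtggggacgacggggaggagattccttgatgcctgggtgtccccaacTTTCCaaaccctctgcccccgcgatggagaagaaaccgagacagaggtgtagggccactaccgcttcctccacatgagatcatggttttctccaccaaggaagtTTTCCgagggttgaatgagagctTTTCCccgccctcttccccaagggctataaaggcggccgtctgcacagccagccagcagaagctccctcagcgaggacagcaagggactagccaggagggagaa
The word GGAAA occurred 5 times in the window of Il4, 4 times in that of Il13 and 3 times each in those of Csf2 and Tnf, on either strand. Promoters were found for 9 of the 10 members, all but Il10, in 10 windows, since Il4 has a further one. All 10 windows held GGAAA, as did 61.3% of 32851 promoters of the same length and 59.2% of the promoters of the genes tested. The TATA box TATAAA was in 4 of the 10 (Ifng, Tnf, Lta and Il13), against 13.6% of all promoters and 6.82% of those of the genes tested. The AP-1 word TGANTCA, the T-box word GGTGTGA and the NF-kB consensus were in 0 of the 10. They were in 7.81%, 3.98% and 4.50% of all promoters and in 4.55%, 3.33% and 5.06% of those of the genes tested. Their absence says only that these letters are not in these windows. GGAAA was thus in the window of Tnf and in those of the genes that fell, apart from Il10, which had no window to search.

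Ifng, Tnf and Lta are the inflammatory members. Ifng (NCBI gene 15978, chr10:118441046-118445894), the macrophage-activating cytokine of type 1 helper cells, was at 17.3 and 16.1 FPKM in WT against 7.20 and 7.30 FPKM in R111A. The replicates of each genotype were close, the groups did not overlap, and the WT mean was 2.31 times the R111A mean. On the log2 scale Ifng fell by 1.10 (95% confidence interval -1.41 to -0.79, adjusted p = 0.00027 in limma), which places Ifng at the 6.50th percentile of all genes tested. In these bulk samples, fewer cells making a transcript and less transcript per cell cannot be told apart.

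Tnf (NCBI gene 21926, chr17:35199367-35202007), a cytokine that drives inflammation and, through its receptors, survival or death of target cells, was the most abundant member at 99.9 and 101 FPKM in WT against 168 and 139 FPKM in R111A. Both R111A libraries were above both WT libraries, and they differed more from each other than the WT libraries did. The log2 fold change was 0.60 (95% confidence interval 0.29 to 0.92, adjusted p = 0.0062 in limma), short of 2-fold. Rescaled to TPM it was 0.27 and not called (adjusted p = 0.10 in limma), and neither was it without WT replicate 1 or WT replicate 2 (0.60 and 0.61, adjusted p = 0.057 and 0.051), the adjusted p reaching from 0.00045 to 0.10 over the alternatives. Lta (NCBI gene 16992, chr17:35203165-35205578), which encodes lymphotoxin alpha, a relative of TNF that binds the same receptors, was at 79.7 and 80.2 FPKM in WT against 89.2 and 74.6 FPKM in R111A. The R111A libraries lay on either side of the WT libraries, so the groups overlapped. The log2 fold change of 0.03 had a 95% confidence interval from -0.28 to 0.34 (adjusted p = 0.88 in limma), and it was -0.30 after rescaling to TPM (adjusted p = 0.076).

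Il3 and Csf2 are adjacent genes that encode growth factors of myeloid cells, IL-3 and GM-CSF. Il3 (NCBI gene 16187, chr11:54265085-54267279) was at 1.85 and 2.29 FPKM in WT, at 0.85 FPKM in R111A replicate 1 and listed at 0 in R111A replicate 2. Both R111A values were below both WT values, but they stand on few fragments, estimated as 14 and 16 in WT and 6 and 0 in R111A, and a count of 0 allows up to 0.465 FPKM there (3 fragments). Both Il3 and Csf2 passed the filter through WT only, which set their direction, so their tests are taken from the fit with no filter, which for these genes, Il13 and Il10 gives the highest adjusted p of all alternatives. There the log2 fold change of Il3 was -1.17 (standard error 0.32, adjusted p = 0.050 in limma, at the threshold), and it was -0.73 without R111A replicate 2, where it no longer reached 2-fold. Csf2 (NCBI gene 12981, chr11:54247270-54249899) was at 1.69 and 2.72 FPKM in WT against 0.32 and 0.18 FPKM in R111A. The groups were well apart, with an estimated 17 and 27 fragments in WT against 3 and 2 in R111A. With no filter its log2 fold change was -1.34 (standard error 0.18, adjusted p = 0.0092 in limma), and the WT mean was 8.82 times the R111A mean, with an exact 95% interval for counting error only of 3.24 to 26.3.

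Il4, Il5 and Il13 are the type 2 cytokines, which help B cells switch to IgE, feed eosinophils and act on epithelia. Il4 (NCBI gene 16189, chr11:53612460-53618665) was at 10.2 and 15.5 FPKM in WT against 1.42 and 0.70 FPKM in R111A. Each group had a spread of its own, yet the lower WT value was far above the higher R111A value, which stands on an estimated 8 to 10 fragments (4 in R111A replicate 2). Il4 had a log2 fold change of -2.74 (95% confidence interval -3.27 to -2.22, adjusted p = 3.7e-05 in limma), the 17th lowest of the 9831 genes tested. Il13 (NCBI gene 16163, chr11:53631323-53634702) was at 6.01 and 5.98 FPKM in WT against 0.13 and 0.15 FPKM in R111A. The replicates nearly coincided within each genotype, and the R111A values amount to an estimated 2 fragments per library against 100 and 95 in WT. Il13 had a log2 fold change of -2.62, and because it passed the filter through WT only, its test is taken from the fit with no filter (standard error 0.09, adjusted p = 0.0023 in limma). On the FPKM scale the WT mean of Il13 was 42.8 times the R111A mean (exact 95% interval for counting error only, 17.3 to 167), against 12.1 times for Il4. Il5 (NCBI gene 16191, chr11:53720794-53725103), the eosinophil growth factor, was listed at 0 and 0.18 FPKM in WT against 0 and 0.05 FPKM in R111A. It was thus at or near 0 in both genotypes, at no more than an estimated 4 fragments, and no difference could be detected at this depth.

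Il10 and Il21 act on other lymphocytes. Il10 (NCBI gene 16153, chr1:131019845-131024970), which restrains inflammation and is made by Tregs and by activated helper cells, was at 3.51 and 4.76 FPKM in WT against 0.29 and 0.26 FPKM in R111A. The groups were far apart, with an estimated 64 and 83 fragments in WT and 5 and 4 in R111A. Il10, which passed the filter through WT only, had a log2 fold change of -2.00 in the fit with no filter (standard error 0.15, adjusted p = 0.0032 in limma), and the WT mean was 15.0 times the R111A mean (exact 95% interval for counting error only, 7.74 to 33.7). Foxp3 moved the same way, as given above, and the part of Tregs in the fall of Il10 was not tested. Il21 (NCBI gene 60505, chr3:37222759-37232636), the cytokine with which follicular helper cells act on B cells, was at 0.82 and 0.90 FPKM in WT against 0.11 and 0.26 FPKM in R111A. Both R111A values were below both WT values. They stand on few fragments, estimated as 1 to 5 and 1 to 10 in R111A against 5 to 38 and 5 to 40 in WT. The mean of Il21 was under the filter, and with no filter its log2 fold change was -0.65 (standard error 0.08, adjusted p = 0.0075 in limma).

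**Figure D2:**
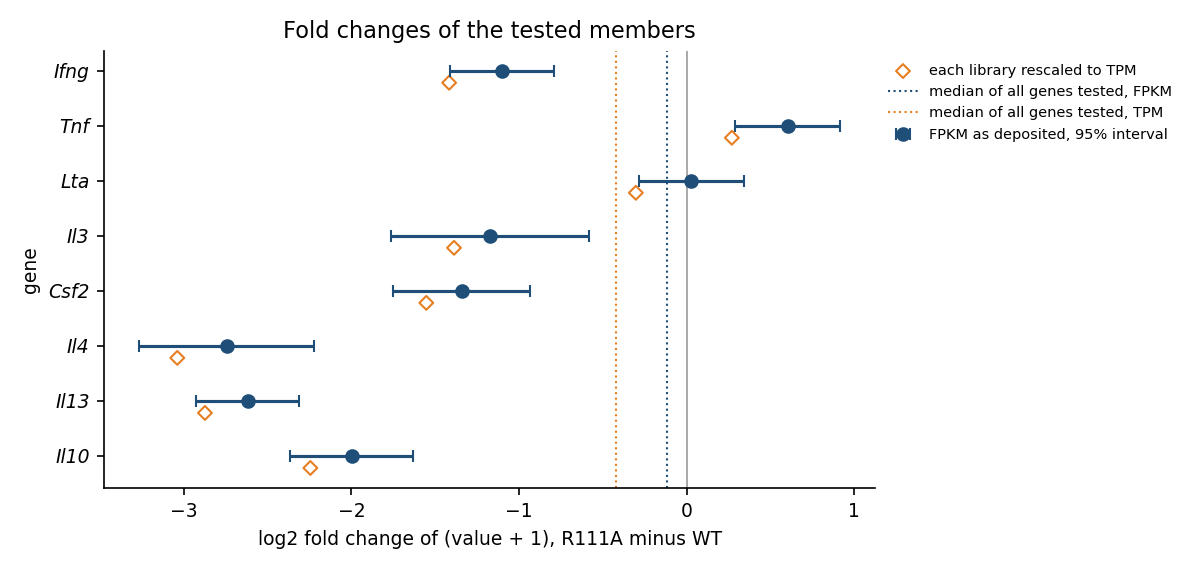
Log2 fold change (R111A minus WT) of the 8 tested members, with filled points and bars for log2(FPKM + 1) and 95% confidence intervals, open diamonds for values after each library was rescaled to TPM, and dotted lines for the medians of all genes tested, -0.12 for FPKM and -0.42 for TPM. Il4, Il13 and Il10 lie at -2.00 or below on both scales and Tnf is at 0.60 for FPKM and 0.27 for TPM. The intervals come from the fit with the filter, also for Il3, Csf2, Il13 and Il10, which passed it through WT only. The direction of these 4 was thus set by the filter.

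Because the scaling moved the median of all genes from -0.12 (FPKM) to -0.42 (TPM), the members were also read relative to it. Relative to the median of all genes, Tnf was at 0.72 with FPKM and at 0.69 with TPM, and Lta at 0.14 and 0.12. Il4 was at -2.63 and -2.62, and Ifng was at -0.99 with FPKM. From lowest to highest the order was Il4, Il13, Il10, Csf2, Il3, Ifng, Lta and Tnf with FPKM, and with TPM only Il3 and Ifng changed places. This order belongs to a pseudocount of 1 FPKM, since at 0.1 FPKM Il13 was lowest (-4.67, against -3.52 for Il4) and at 5 FPKM Ifng (-0.83) was below Il10 (-0.79), Csf2 (-0.45) and Il3 (-0.39). Without R111A replicate 2 or WT replicate 2, Il13 was below Il4 as well. Ifng (-1.15) was below Csf2 (-1.11) and Il3 (-1.07) without WT replicate 2. Il3 was below Csf2 (-1.61 and -1.42) without R111A replicate 1 and above Ifng (-0.73 and -1.11) without R111A replicate 2.

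Per kilobase, Tnf and Lta made up most of the cytokine transcripts and their share was larger in R111A. The 10 members summed to 221 and 229 FPKM in WT and to 268 and 223 FPKM in R111A, so the total overlapped between the genotypes. Tnf and Lta held 81.3% and 78.9% of that sum in WT and 96.2% and 96.0% in R111A. Without them the sum was 41.4 and 48.4 FPKM in WT and 10.3 and 8.90 FPKM in R111A, and the genotypes did not overlap. The type 2 cytokines held 7.34% and 9.43% of the sum in WT and 0.579% and 0.404% in R111A, and Ifng 7.84% and 7.02% against 2.69% and 3.28%. Thus Ifng lost less of its share than the type 2 cytokines.

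**Figure D3:**
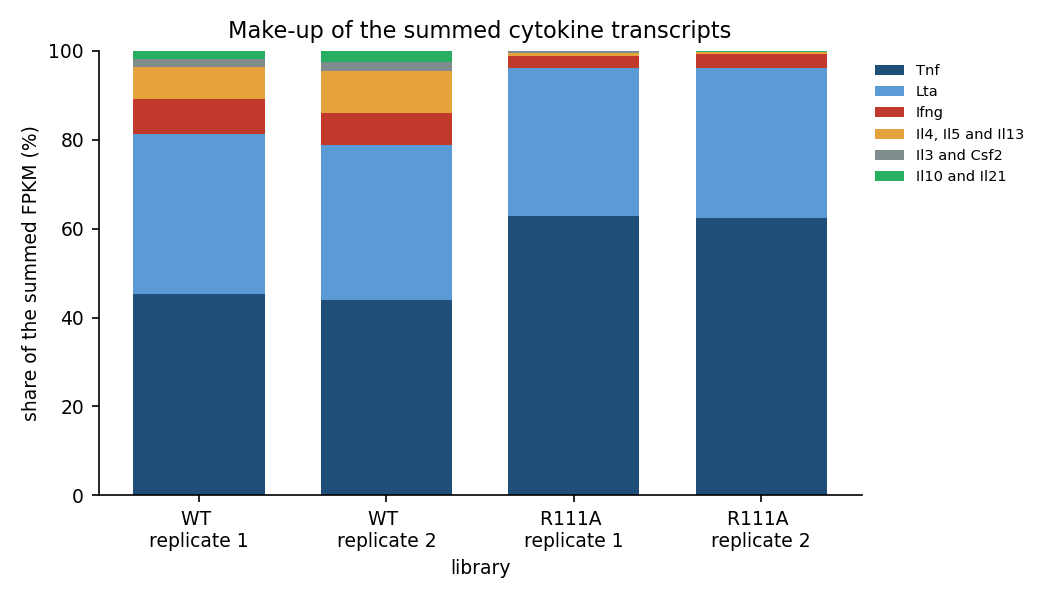
Share (%) of the summed FPKM of the 10 cytokine genes held by Tnf, Lta, Ifng and the other members by role, 1 stacked bar per library. Tnf and Lta together take 78.9% to 81.3% of the sum in WT and about 96% in R111A, where Il4, Il5 and Il13 together take less than 0.6%.

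Ratios between members, which do not depend on the scaling of a library, showed the same. The Tnf to Lta ratio was 1.25 and 1.26 in WT and 1.89 and 1.86 in R111A, so it differed between the genotypes by more than between replicates although these genes lie 1.16 kb apart. The Ifng to Il13 ratio was 2.88 and 2.69 in WT and 55.4 and 48.7 in R111A, and the Ifng to Il4 ratio was 1.70 and 1.04 in WT and 5.07 and 10.4 in R111A. Against Il4 the ratio varied up to 2-fold between replicates, because Il4 did. Neither ratio overlapped between the genotypes.

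Ranked by mean FPKM, the first 4 members were Tnf, Lta, Ifng and Il4 in both genotypes. In WT each of these was apart from the next, and Il13 and Il10 followed at ranks 5 and 6, while the values of Csf2 and Il3 overlapped. In R111A Il13 ranked 9, its values within the range of those of Il21. Il4 and Il3 overlapped there, as did Il10 and Csf2, so that below Ifng these libraries resolve the R111A order only in part.

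The 3'UTRs of the members carry the AU-rich word ATTTA, which was counted in the longest annotated 3'UTR of each gene (GENCODE transcripts of GRCm38). All 10 held it, from 1 match in Il3, whose 3'UTR has only 101 bases in that annotation, to 9 in Csf2 and 9 in Il21. A longer 3'UTR outside that annotation would not have been searched. Tnf, which was higher in R111A, held 8 matches (10.5 per kb), and Ifng, which was lower, held 6 (9.51 per kb), against 1.71 per kb over the 3'UTRs of 9709 tested genes. A stem of 5 base pairs closing a loop of 3 bases of the order pyrimidine, purine, pyrimidine was found in Tnf and Il21 and in 25.4% of the tested genes. The matching letters are printed on the sense strand, which is the minus strand of GRCm38 for both genes, with the loop in capitals, at chr17:35199586-35199598 and chr17:35199431-35199443 (Tnf) and chr3:37223491-37223503 (Il21).
Tnf first site: ttttcTGTgaaaa
Tnf second site: ctcccCACgggag
Il21 site: aaagcTACgcttt
No such match was found in the other 8 members, nor in Il2. The word is stricter than the motif described for Regnase-1, which allows shorter stems and longer loops, so its absence says only that these letters are not there. Folding and binding were not examined.

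Il2, the growth factor that activated helper cells make first, fell further than any member on the log2(FPKM + 1) scale, although by the ratio of mean FPKM it fell 30.04-fold and Il13 42.82-fold. It was at 100 and 96.9 FPKM in WT against 3.98 and 2.58 FPKM in R111A, so that in WT it stood beside Tnf and in R111A below Ifng. The log2 fold change was -4.56 (standard error 0.17, adjusted p = 2.7e-06 in limma). The Tnf to Il2 ratio was 0.998 and 1.04 in WT and 42.3 and 53.9 in R111A. Of 18 other cytokine genes of T cells that were tested, Il2 included, 9 were lower and 3 higher by the adjusted p (32.1% and 21.2% of all genes), at a median log2 fold change of -0.31 against -0.12 for all genes tested. Il17a and Il17f, among the 9, passed the filter through WT only and could not have been higher. After rescaling to TPM the counts were the same, and 9 of 18 lower was then close to the 51.8% of all genes. Ltb, which encodes the membrane partner of lymphotoxin alpha, was at 275 and 320 FPKM in WT against 1085 and 897 FPKM in R111A (log2 fold change 1.73, standard error 0.15, adjusted p = 3.9e-05 in limma). With Lta not called, the Ltb to Lta ratio was 3.44 and 3.99 in WT and 12.2 and 12.0 in R111A. Fasl and Tnfsf8, further members of the TNF family, were higher by 1.24 and 0.89 on the log2 scale, and Tnfsf14 was lower, at -1.30, as was Lif, at -1.52. The family of Tnf and Lta thus went both ways. Il22 was near 0, at 0.07 and 0.29 FPKM in WT and 0.15 and 0 FPKM in R111A.

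Of 12 receptors of the members that were tested, 8 were higher and 1 was lower in R111A (21.2% and 32.1% of all genes tested), the median log2 fold change being 0.48. After rescaling to TPM 4 were higher and 1 lower (13.6% and 51.8% of all genes), with a median of 0.20. Both receptors of TNF and lymphotoxin alpha were among the higher ones. Tnfrsf1b was at 36.3 and 34.0 FPKM in WT against 111.2 and 81.4 FPKM in R111A (log2 fold change 1.41, standard error 0.17, adjusted p = 0.00021 in limma), and Tnfrsf1a had a log2 fold change of 0.96 (adjusted p = 0.0016). The chains of the interferon gamma receptor went in opposite directions. Ifngr1, the ligand-binding chain, was at 19.1 and 19.2 FPKM in WT against 71.8 and 57.2 FPKM in R111A (log2 fold change 1.70, standard error 0.15, adjusted p = 4.6e-05 in limma), while Ifngr2, the signaling chain, was lower, at 17.0 and 17.5 FPKM against 11.4 and 7.07 FPKM (log2 fold change -0.87, adjusted p = 0.0066). Ifngr2 was at -0.56 without R111A replicate 2 and at -1.18 without R111A replicate 1, and with no filter its adjusted p was 0.049 in limma. Il21r was higher by 0.95 on the log2 scale. Csf2ra was higher by 0.55, a call lost after rescaling to TPM (adjusted p = 0.085 in limma) and without WT replicate 1 or 2 (0.084 and 0.074).

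Genes induced by interferon gamma went both ways while Ifng was lower. Of 22 tested, 11 were higher and 3 lower in R111A (21.2% and 32.1% of all genes), at a median log2 fold change of 0.40 against -0.12 for all genes, and after rescaling to TPM 9 were higher and 7 lower (13.6% and 51.8% of all genes), with a median of 0.07. The 6 with the largest changes, Gbp8, Gbp7, Gbp9, Cxcl10, Gbp3 and Gbp6, were higher, with log2 fold changes from 1.06 to 1.98. The 3 lower ones were Psmb9 (-0.87), Socs1 (-0.81) and Gbp5 (-0.59), of which Socs1 was at -0.37 without R111A replicate 2 and at -1.24 without R111A replicate 1 and was not called after quantile normalization or with no filter (a range of 2.7e-06 to 0.11 for the adjusted p in limma over all alternatives) and Gbp5 not without WT replicate 1 or 2 (adjusted p = 0.10 and 0.096, with a range of 0.00024 to 0.10). Cxcl9, under the filter, was at 0.41 and 0.81 FPKM in WT against 0 and 0.05 FPKM in R111A. Most of the higher ones encode guanylate-binding proteins of cell-autonomous defence, and their family members may share reads. Gbp8, for example, was at 14.2 and 11.2 FPKM in WT against 47.2 and 58.4 FPKM in R111A, where Ifng was low. Many of these genes also respond to type I interferon, which was not examined here.

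Of 38 transcription factors that act on cytokine genes, 13 were higher and 13 lower (21.2% and 32.1% of all genes tested), the median log2 fold change being -0.26. This split depended on the scaling, with 12 higher and 21 lower after rescaling to TPM (13.6% and 51.8% of all genes) and 15 higher and 9 lower after quantile normalization (23.7% and 26.7%). Tbx21, which encodes T-bet, the factor that opens Ifng, was at 30.3 and 29.1 FPKM in WT against 5.44 and 3.16 FPKM in R111A (log2 fold change -2.57, standard error 0.20, adjusted p = 3.0e-05 in limma). Its relative Eomes went the other way, from 0.88 and 0.80 FPKM in WT to 6.68 and 4.32 FPKM in R111A. Eomes passed the filter through its R111A values only, so its test is taken from the fit with no filter. There its log2 fold change was 1.80 (standard error 0.21, adjusted p = 0.0067 in limma). Irf4, needed for effector differentiation, was lower, at 426 and 368 FPKM against 117 and 135 FPKM (log2 fold change -1.65). Bcl6, the repressor that directs follicular helper cells, was higher by 2.20 on the log2 scale, although Il21 was low, and so were Fosl2 (2.51), a subunit of AP-1, and Egr2 (1.56), an early response factor linked to T cell unresponsiveness. Gata3, the type 2 lineage factor, was chosen for naming after its values were seen. It was at 5.08 and 4.76 FPKM in WT against 3.36 and 2.69 FPKM in R111A (log2 fold change -0.56, standard error 0.15, adjusted p = 0.013), a smaller change than those of Il4 and Il13 and one not called without WT replicate 1 or 2 (adjusted p = 0.12 and 0.067, with a range of 0.00069 to 0.12 over the alternatives).

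Among 16 tested factors that control mRNA decay, 2 were higher and 5 lower (12.5% and 31.2%, against 21.2% and 32.1% of all genes), at a median log2 fold change of -0.18. After rescaling to TPM 2 were higher and 9 lower (12.5% and 56.2%, against 13.6% and 51.8%), so the lower ones were about as frequent as among all genes. The 2 higher ones were Zc3h12a and Zfp36. Zc3h12a, the gene of the transgene, had to be higher, so its part in this count is no result, and Zfp36 was the only other one. Zfp36 encodes tristetraprolin, a protein that binds AU-rich words such as those of Tnf. Zfp36 was at 39.2 and 36.6 FPKM in WT against 110.5 and 63.5 FPKM in R111A (log2 fold change 1.12, standard error 0.23, adjusted p = 0.0037 in limma), with the R111A replicates further apart than the WT replicates. Without R111A replicate 1 its log2 fold change was 0.73, short of 2-fold, and without R111A replicate 2 it was 1.52. With no filter the adjusted p of Zfp36 was 0.041 in limma. Of the lower ones, Zc3h12d, a relative of Regnase-1, had a log2 fold change of -0.93, Tial1 of -0.82, Rc3h1 (roquin-1) of -0.73 and Elavl1 (HuR, which stabilises AU-rich transcripts) of -0.63, the last not called without WT replicate 1 or 2 (adjusted p = 0.082 and 0.070 in limma).

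Several members lie in clusters, and their neighbours did not all move with them. Within 100 kb of the members there were 25 other protein-coding genes in the table, of which 19 were tested, 5 were higher and 5 lower (21.2% and 32.1% of all genes), at a median log2 fold change of -0.22. The 5 lower include Il2, which is described above. Atp6v1g2 and Cetn4, also among them, passed the filter through WT only and could not have been higher. Ly6g5b, among the 5 higher, passed it through R111A only and could not have been lower. The call of Atp6v1g2 was lost with median-of-ratios factors (-0.36, adjusted p = 0.051 in limma). After rescaling to TPM 2 were higher, Ltb and Ly6g5b (which passed the filter through R111A only), and 13 lower (13.6% and 51.8% of all genes), with a median of -0.55. Il4 and Il13 lie 12.7 kb apart. Kif3a, which lies 8.21 kb from Il4 and encodes a motor protein, was at 1.06 and 1.01 FPKM in WT against 1.97 and 1.84 FPKM in R111A, opposite to Il4 (log2 fold change 0.51, adjusted p = 0.012 in limma), but it was not called after rescaling to TPM (0.33, adjusted p = 0.083) or quantile normalization (0.33, adjusted p = 0.074), nor without either WT library (adjusted p from 0.0058 to 0.096 over the alternatives). Rad50, a DNA repair gene between Il13 and Il5 whose introns hold regulatory elements of these cytokine genes, was at 14.9 and 12.7 FPKM in WT against 9.63 and 11.6 FPKM in R111A, which was not called (log2 fold change -0.35, adjusted p = 0.088) except after rescaling to TPM (-0.66, adjusted p = 0.0047) and without R111A replicate 2 (-0.47, adjusted p = 0.023), with a range of 0.0047 to 0.55 over the alternatives. The fall of Il4 and Il13 was thus several times larger on the log2 scale than any change of the genes beside them.

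Around Tnf, which lies between Ltb (3.06 kb away) and Lta, Ltb was higher, Tnf was higher by less (a call lost after rescaling to TPM and without either WT library) and Lta was not called, so the 3 adjacent TNF family genes had log2 fold changes of 1.73, 0.60 and 0.03. Near Il21, the neighbour Bbs12 was lower as well, at -1.17, and so was Cetn4, at -1.25, which passed the filter through WT only and could not have been higher. Il2, 96.8 kb from Il21, was the lowest of them. Near Il10, Mapkapk2, a kinase that controls cytokine mRNA stability, was at 61.5 and 69.0 FPKM in WT against 39.1 and 37.1 FPKM in R111A (log2 fold change -0.76, adjusted p = 0.0016 in limma), a smaller fall than that of Il10.

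**Figure D4:**
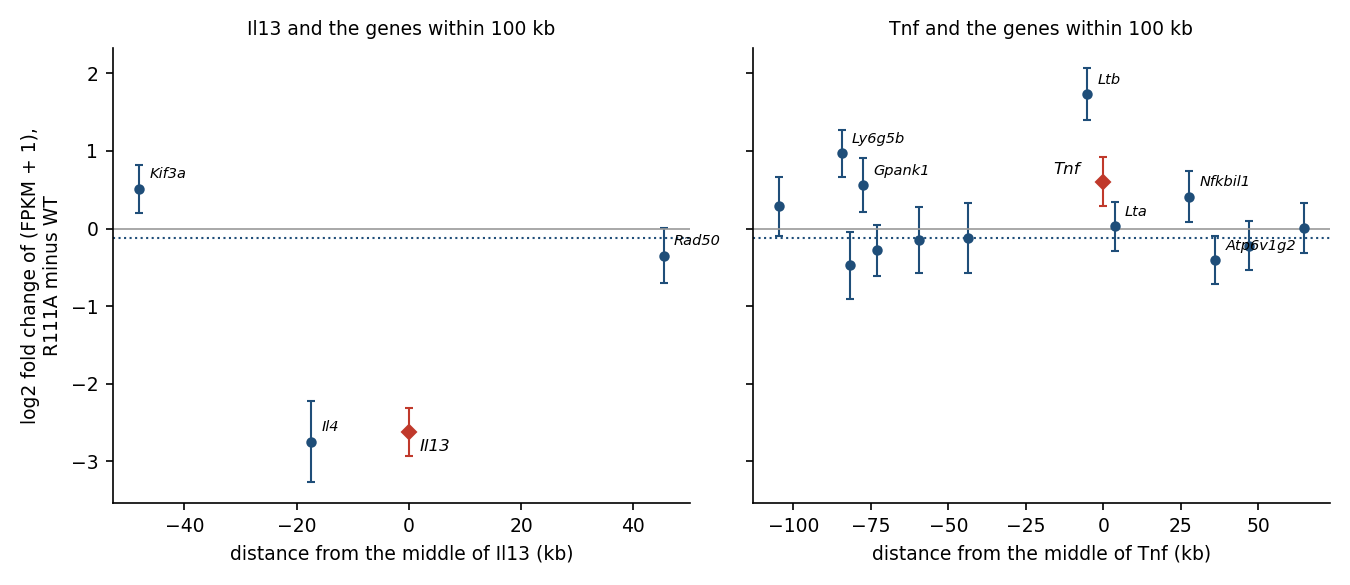
Log2 fold change of log2(FPKM + 1), R111A minus WT, with 95% confidence intervals, for Il13 (left) and Tnf (right, red diamonds) and for the tested genes within 100 kb of each (blue), by the distance in kb between the middles of the genes, the dotted line being the median of all genes tested. Il4 and Il13 lie at -2.74 and -2.62 between Kif3a at 0.51 and Rad50 at -0.35 (the call of Kif3a is lost after rescaling to TPM), and Ltb, Tnf and Lta lie at 1.73, 0.60 and 0.03. The intervals come from the fit with the filter, which Il13 passed through WT only.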

How the data were processed

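RNA-seq of 2 WT and 2 R111A libraries was used. The authors aligned polyA RNA reads to mm10 and estimated expression (the submitters' processing notes name Bowtie2 2.4.4 and RSEM 1.2.28), and deposited FPKM values for 16142 genes, 1 column per library. Columns not used: 0. FPKM values are not counts, so the DESeq2 test that the authors ran on counts was not repeated. Depth was estimated from single-fragment steps below 0.4 FPKM, with 150 bases taken off each transcript length, and counting intervals are exact binomial intervals on the estimated fragments. After adding a pseudocount of 1 FPKM and taking log2, genes whose mean reached 1 FPKM were tested in R 4.3.3 with limma 3.58.1 (lmFit, then eBayes with a trend, p adjusted by Benjamini-Hochberg). Calls needed an adjusted p under 0.05 and a 2-fold change, or the adjusted p alone where stated. In the text, the tests of Il3, Csf2, Il13 and Il10, which passed through WT only, are given singly from the fit with no filter. So are those of Eomes and the markers of other cells, which passed through R111A only. The procedure was tested on simulated data. Other steps used python 3.11.15, numpy 2.4.6, pandas 2.3.3, scipy 1.17.1 and matplotlib 3.10.9.

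NCBI gene IDs linked the table to RefSeq genes and promoters of GRCm38.p6 and to GENCODE M21 transcripts. The genes named were the members, Il2, Zc3h12a, up to 6 genes per list with an adjusted p under 0.05 and the largest absolute log2 fold change, and genes within 100 kb of a member. Markers named singly, Gata3, Il22, Psmb9, Socs1, Gbp5 and Cxcl9, and the words searched in 3'UTRs, were chosen after values were seen. The members and the 5 gene lists were chosen with earlier results of these data known. As alternatives, the pseudocount was 0.1 or 5 FPKM, the filter was dropped or set at 5 FPKM, libraries were scaled by TPM, quantiles or median-of-ratios factors, the replicate number entered as a block, eBayes ran robust or without trend, the fold threshold was dropped, and each library was left out in turn.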

Additional observations from a re-analysis of the deposited data

How the results depend on the processing

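The counts of genes called higher and lower (838 and 820) moved to 386 and 402 with a pseudocount of 5 FPKM and to 2088 and 3152 with no fold threshold. A filter at a mean of 5 FPKM left 521 higher, and rescaling to TPM gave 1749 lower. Members called lower fell from 6 to 2 with the pseudocount of 5 FPKM, which shrinks low values and left Il4 and Il13, and to 2 with the filter at 5 FPKM, which tests Ifng, Tnf, Lta and Il4 alone. Members called higher rose from 0 to 1 (Tnf) with no fold threshold. Without 1 library at a time, 834 to 851 genes were higher and 824 to 884 lower, with 0 members higher and 5 to 6 lower. In these fits the lone library of a group is assumed to vary like those of the other group.

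Of 1127 log2 fold changes of single genes recomputed for 82 genes, 1024 kept their sign and their side of the threshold, 61 were no longer called, 26 became called, 15 changed sign but were called neither way (Lta among them, at -0.30 with TPM), and 1 changed sign and was called. The last was H2-D1, near Tnf, at 0.01 as deposited and -0.33 after rescaling to TPM (adjusted p = 0.041 in limma), a value near 0 that moved with the median of all genes (-0.12 to -0.42). Of the members tested, only Tnf lost a call by the adjusted p. With the replicate number as a term (replicate block) 841 genes were higher and 821 lower, with 0 and 6 members, and it changed no call of a member. Deviations of same-numbered libraries had a correlation of 0.11 over 9831 genes, and with 2 pairs this does not show whether they share more than a number.

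With 2 libraries per genotype, calls rest on the spread pooled over genes. Il3, Csf2, Il13 and Il10 stand on fewer than 10 estimated fragments in each R111A library. Il4 and Il21 stand on no more than 10 there, and Il5 on fewer than 5 in any library. Fold changes of such low genes follow the pseudocount, from -1.10 to -4.67 for Il13 and from -1.54 to -3.52 for Il4.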
